A study of Mus musculus with 2 samples.

Results

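The genes described here encode angiogenic factors that tumour myeloid cells can make, the receptors for them and a transcription factor upstream of them. They were Vegfa, Vegfb and Pgf, Flt1, Nrp1 and Nrp2, Prok2, Thbs1, Plaur and Hif1a, and every array probe that RefSeq assigned to a transcript of one of them was used. This gave 12 probes of 39413, for 10 of the 20653 genes named on the arrays. RNA came from monocytic myeloid-derived suppressor cells (M-MDSCs), immature monocyte-like cells that restrain T cells, taken from tumours of 4T1, a mammary carcinoma line. Female BABL/c mice had received 1000000 of these cells under the skin of the left armpit. They were then kept for 16 days on a normal-salt diet (NSD, with 0.4% NaCl chow and tap water) or a high-salt diet (HSD, with 4% NaCl chow and drinking water at 1% NaCl). The labels state no age. M-MDSCs were isolated with magnetic beads, pooled in equal shares from the mice of a diet and hybridised to 1 single-colour Agilent array per diet, so a group has 1 value per probe. The spread between mice is unknown, no test of the diet was possible, and every difference below compares a pair of pools.

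Blood vessels grow when endothelial cells respond to growth factors of the VEGF family. VEGF-A acts through the tyrosine kinase receptors VEGFR2 (Kdr) and VEGFR1 (Flt1), and VEGF-B and placental growth factor bind VEGFR1, which binds VEGF-A tightly and can limit its action. Neuropilins are co-receptors for VEGFs and for class 3 semaphorins. Myeloid cells of tumours are known to release VEGF-A and prokineticin 2 (Bv8), while thrombospondin-1 inhibits endothelial growth, the urokinase receptor focuses plasmin formation on the cell surface, and HIF-1α drives genes of the hypoxia response, Vegfa among them.

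Prok2 and Vegfa were higher and Thbs1 and Flt1 were lower in the HSD group. The largest difference was that of Thbs1, 6.96-fold lower, and Prok2 was 2.22-fold higher, Vegfa 1.78-fold higher and Flt1 1.53-fold lower. The other 6 genes, Vegfb, Pgf, Nrp1, Nrp2, Plaur and Hif1a, differed by less than 1.5-fold, the fold used here to call a gene. The 10 genes thus held 2 calls in each direction. Among all 16312 genes with a usable value, 9.86% were called higher and 10.3% lower. The median log2 fold change (HSD minus NSD) was −0.24 over the 10 genes and 0.045 over all genes. In RNA of pooled cells, fewer cells of a type and less RNA per cell cannot be told apart.

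On both arrays all 12 probes passed the scanner software's criterion for a signal well above background, none was flagged, and each was printed in 1 spot per array. Signals below are processed intensities with the software's own error of that spot, which was between 10% and 14.6% of the signal for these probes. Log2 fold changes were taken after each array had been scaled on its 75th percentile, which was 252 for NSD and 233 for HSD. Signals and summed signals in the text are before this scaling, which raises HSD values against NSD values. The error ranges of the diets, 1 error to each side after scaling, were apart for 8 of the 12 probes. A second yardstick came from 289 other probes printed in several spots. For 6 of the 12 probes the difference between the diets was larger than 95% of the differences between spots of 1 probe at like signal on the same array. Both yardsticks cover measurement on the array and not variation between mice or cell preparations.

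**Figure D1:**
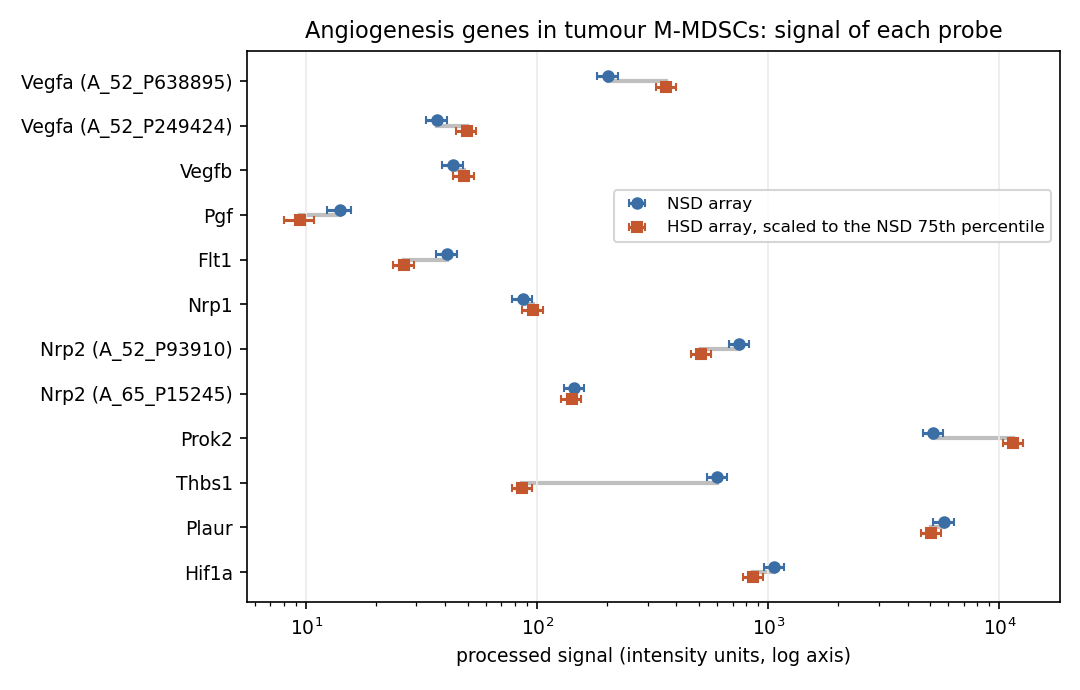
Processed signal of each of the 12 probes on a log axis, with circles for the NSD array and squares for the HSD array, the latter scaled to the 75th percentile of the NSD array; bars are the software's error of the spot. Thbs1 lies at 600 for NSD and 86.2 for HSD, Prok2 at 5168 and 11473, and the bars of Vegfb, Nrp1, Plaur and 1 of the Nrp2 probes overlap.

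The upstream sequences of genes past 1.5-fold are shown because the genes differ in which short motifs they hold. The lines below give the 250 bases before the RefSeq start, 5′ to 3′ on the coding strand in build GRCm38.p6, for Prok2 and Vegfa, higher in the HSD group, and for Flt1, lower in it. Capitals mark matches on either strand to the HIF core ACGTG or to the AP-1 site TGANTCA. The windows lie at chr6:99726393-99726642 (minus strand) for Prok2, chr17:46032378-46032627 (minus strand) for Vegfa and chr5:147726012-147726261 (minus strand) for Flt1.
Prok2: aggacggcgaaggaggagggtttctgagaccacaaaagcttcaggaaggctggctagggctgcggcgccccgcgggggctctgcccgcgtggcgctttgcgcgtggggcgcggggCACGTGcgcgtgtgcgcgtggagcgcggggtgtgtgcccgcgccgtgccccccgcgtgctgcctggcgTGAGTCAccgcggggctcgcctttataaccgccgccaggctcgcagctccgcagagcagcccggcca
Vegfa: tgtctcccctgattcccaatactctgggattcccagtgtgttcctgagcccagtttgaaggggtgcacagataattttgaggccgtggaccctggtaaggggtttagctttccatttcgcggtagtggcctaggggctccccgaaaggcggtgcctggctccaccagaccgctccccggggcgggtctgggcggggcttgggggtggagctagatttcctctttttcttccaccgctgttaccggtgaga
Flt1: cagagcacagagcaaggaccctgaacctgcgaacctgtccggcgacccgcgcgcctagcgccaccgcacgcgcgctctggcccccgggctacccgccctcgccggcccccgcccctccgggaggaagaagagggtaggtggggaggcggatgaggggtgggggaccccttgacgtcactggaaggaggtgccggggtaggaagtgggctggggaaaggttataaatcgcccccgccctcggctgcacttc
The Prok2 window holds CACGTG, which contains the HIF core on both strands, beginning 135 bases before the start, and an AP-1 match at 67 bases. No match lies in the Vegfa and Flt1 windows shown, and sites further upstream than 250 bases were not searched. RefSeq windows were at hand for 9 of the 10 genes, not for Thbs1, and numbered 11 because Vegfa and Pgf have another start each. The HIF core was present upstream of 3 of the 9 genes, Prok2, Hif1a and the inner start of Vegfa, and in 16.6% of all 32851 windows of this length. The AP-1 site was present upstream of Prok2 and Plaur and in 6.75% of all windows. The NF-κB site, searched as GGGA and CC with any 4 bases between them, was present upstream of Vegfb and Plaur and in 17.6% of all windows. A gene was counted if any of its windows matched, while the shares count each window singly. The matching Vegfa window, chr17:46025164-46025413, lies downstream of the one shown, inside the gene. Such matches describe letters, not binding.

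Of Vegfa, Vegfb and Pgf, Vegfa alone was past 1.5-fold. Its brighter probe (A_52_P638895) had a signal of 202 ± 20.2 under NSD and 333 ± 33.4 under HSD (log2 fold change 0.84). The HSD group was the higher one and the error ranges did not overlap. Its dimmer probe (A_52_P249424) had signals of 36.7 ± 3.81 and 45.7 ± 4.67 (log2 fold change 0.43, or 1.35-fold). The probes thus agreed in direction and not in size, and the dimmer one stayed within the range of differences between spots, whose 95th percentile was 0.48 at that signal. They are assigned to different Vegfa transcripts in the array design, and the part of the gene each one reads was not determined here. Among all genes, 4.35% were higher in the HSD group by as much as the brighter Vegfa probe.

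Vegfb, which encodes a ligand of VEGFR1 linked to fat metabolism of tissues more than to vessel growth, had signals of 43.1 ± 4.44 and 44.5 ± 4.58 in the NSD and HSD groups. The log2 fold change of 0.16 was within the spot differences and the error ranges overlapped. Pgf, the gene of placental growth factor, had low signals of 14.0 ± 1.69 and 8.70 ± 1.27. The HSD value was the lower one, by 1.48-fold, just short of the call, and the log2 fold change of −0.57 lay under the 95th percentile of 0.85 for spots of such low signal. With another background correction (normexp, offset 50) the log2 fold change of Pgf was 0.013, and with cyclic loess between the arrays it was −0.67, past 1.5-fold. The remaining ligands of the family were close to the detection limit. Vegfc, a factor of lymphatic vessels, had signals of 4.82 and 5.80, and Vegfd, of the same branch, had signals of 7.32 and 18.3. The log2 fold change of Vegfd was 1.44, and 0.34 with the normexp correction.

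Flt1, Nrp1 and Nrp2 encode receptors, and of these Flt1 was past 1.5-fold. Flt1, the gene of VEGFR1, had a signal of 40.7 ± 4.19 under NSD and 24.5 ± 2.63 under HSD (log2 fold change −0.62). HSD cells were lower, beyond the error ranges and beyond the 95th percentile of spot differences, and 9.53% of all genes were lower by as much. The log2 fold change with the normexp correction was −0.25, short of the call. Both Flt1 signals lie under the offset of 50, so this loss cannot be told from the effect of the offset.

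The brighter of the Nrp2 probes (A_52_P93910) had signals of 747 ± 74.7 under NSD and 474 ± 47.4 under HSD. The HSD value was 1.46-fold lower, beyond the spot differences and short of the call, and it was past 1.5-fold with cyclic loess (log2 fold change −0.61) and in the authors' deposited values (−0.61). The other Nrp2 probe (A_65_P15245), assigned to another transcript variant, had signals of 145 ± 14.5 and 130 ± 13.1. Its log2 fold change was −0.039, or 0.043 with the normexp correction, so the lower level was seen with the brighter probe only. Nrp1 had signals of 86.6 ± 8.72 and 88.5 ± 8.90 (log2 fold change 0.15) with overlapping error ranges. Flt1 and the brighter Nrp2 probe were thus lower in the HSD group, while Nrp1 was close to even.

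Kdr, the main signalling receptor for VEGF-A, had probes that disagreed. The brighter one had signals of 150 and 169 in the NSD and HSD groups (log2 fold change 0.28), and the other had 124 and 20.4 (log2 fold change −2.49), both well above background on each array. No single value is therefore given for Kdr. Flt4, encoding VEGFR3, had a signal of 5.13 under NSD and fell short of the background criterion under HSD, which makes it lower by at least 1.08-fold. Endothelial cells express these receptors, so their markers were read too. Of 12 endothelial markers, 8 were well above background under NSD and 9 under HSD, with summed signals of 591 on each array before scaling. Of 10 with a usable value, Kdr at its brighter probe among them, none was called higher and 1, Ptprb, lower (log2 fold change −0.75). With normexp none was lower (Ptprb −0.11), and with the median over probes 2 were, Kdr (−1.10) and Ptprb. The list had a median of 0.0046 on the log2 scale. Pecam1 had signals of 90.8 and 99.1. The more restricted markers Cdh5 (5.31 and 2.93) and Tek (3.0 and 4.62) were well above background on 1 array each, and Tie1 on neither.

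**Figure D2:**
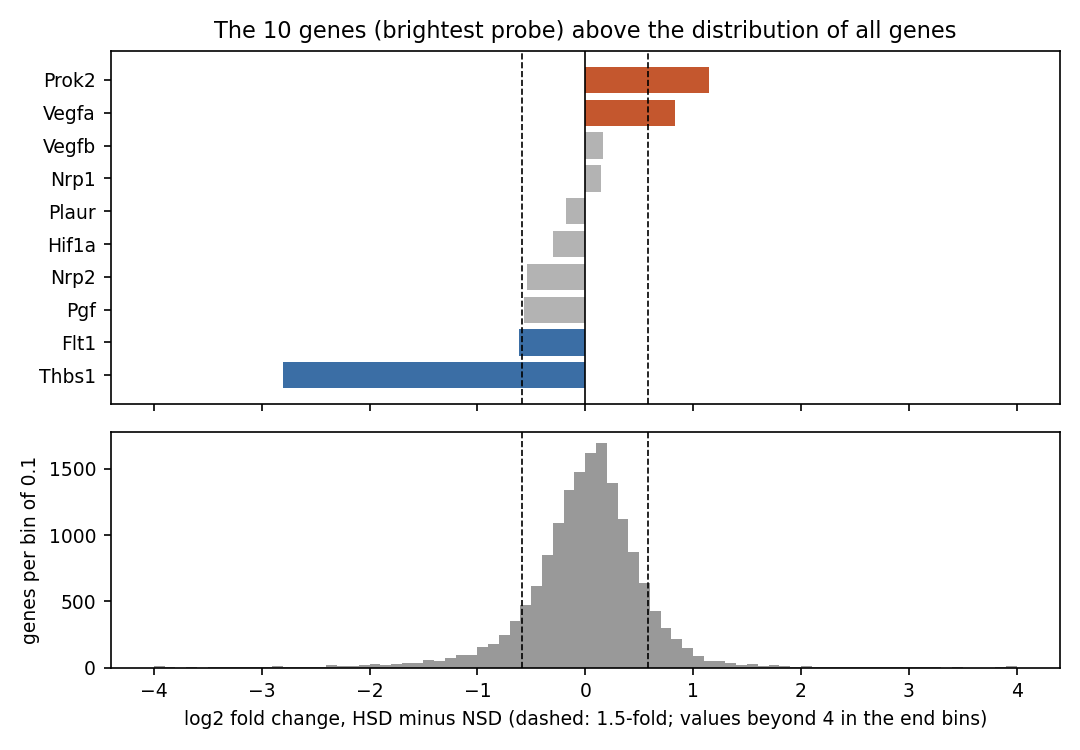
Log2 fold change (HSD minus NSD) of the brightest probe of each of the 10 genes as bars, above the histogram of the 16312 genes with a usable value in bins of 0.1; dashed lines mark 1.5-fold. Prok2 (1.15) and Vegfa (0.84) lie right of the lines, Flt1 (−0.62) and Thbs1 (−2.80) left of them, and the other 6 genes between them.

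Prok2 was the gene of the 10 with the largest difference upwards. Prokineticin 2 is a small secreted protein of neutrophils and monocytes that recruits myeloid cells and promotes vessel growth. The signal was 5168 ± 517 under NSD and 10599 ± 1060 under HSD (log2 fold change 1.15). The HSD group exceeded the NSD group by far more than the error ranges and the spot differences (95th percentile 0.22), and 1.92% of all genes were higher by as much. Over 8 other ways of processing the log2 fold change lay between 1.04 and 1.16. Its receptors had low and even signals, 18.9 and 17.7 for Prokr1 and 12.7 and 12.1 for Prokr2, and Prok1, the related ligand, did not clear the background on either array.

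Thbs1 showed the largest difference of the 10 genes. Thrombospondin-1 is a matrix protein of macrophages, fibroblasts and platelet granules that inhibits angiogenesis, in part through CD36. The signal was 600 ± 60.0 under NSD and 79.7 ± 8.02 under HSD (log2 fold change −2.80). The HSD value was lower by many times the spot differences (95th percentile 0.23), and 0.337% of all genes were lower by as much. The log2 fold change was between −2.91 and −2.10 over 8 other ways of processing. Thbs1 was measured by 1 probe only.

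Markers of cells that make thrombospondin-1 also differed. The counts for these and the later lists stand beside 9.86% of all genes called higher and 10.3% called lower. Of 10 platelet and megakaryocyte markers, 9 cleared the background under both diets, and 5 of these were called lower and none higher, with summed signals of 1670 under NSD and 503 under HSD. Pf4 had signals of 1332 and 245 (log2 fold change −2.33), Ppbp had 47.9 and 9.46, and Itga2b had 13.9 and 6.94. Gp1ba had a log2 fold change of −1.44. Gp1bb (0.36), Gp6 (0.30) and Clec1b (0.10) lay above 0 at their brightest probes. The dimmer probes of Gp1bb had 0.54 and 0.84, the latter past 1.5-fold, and those of Clec1b had 0.37 and 0.41. Pf4 made up most of the NSD sum. With the normexp correction Pf4 alone of this list was past 1.5-fold. Of 9 macrophage markers with a probe, 8 had a usable value and 5 of these were at least 1.5-fold lower, with summed signals of 19363 and 14196. Mrc1 had a log2 fold change of −4.50, C1qc of −3.11, Mertk of −2.52 and Apoe of −0.60. C1qb (0.33) and Fcgr3 (0.21) lay above 0, and with normexp 4 of the 8 were lower, Mrc1 at −1.56. Of 7 usable fibroblast markers, 3 were lower (Fap, Col3a1 and Dcn, log2 fold changes −1.34, −1.09 and −0.80) and 1 was higher (Pdgfrb, 0.59), with summed signals of 393 and 351. With normexp none of these 7 was past 1.5-fold. The part of these cells in the Thbs1 difference was not tested.

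Other inhibitors of angiogenesis and partners of thrombospondin-1 were read from a list of 12 genes without Thbs1. Of these, 7 had a usable value, none was called higher and 2 were called lower, with a median log2 fold change of −0.14. Cd36, the thrombospondin receptor and fatty acid carrier, was the larger of them, with signals of 334 and 97.6 and a log2 fold change of −1.66. Timp3, a metalloproteinase inhibitor that also blocks VEGF-A from VEGFR2, had signals of 34.7 and 13 (log2 fold change −1.30, with normexp −0.36). Cd47, the other cell-surface receptor of thrombospondin-1, had signals of 6197 and 6780 (log2 fold change 0.24).

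Plaur, encoding the urokinase receptor, was bright and nearly even. Its signal was 5752 ± 575 under NSD and 4691 ± 469 under HSD (log2 fold change −0.18) with overlapping error ranges, within the differences between spots (95th percentile 0.22). With quantile normalization (−0.26), cyclic loess (−0.28) and the deposited values (−0.26) it was beyond that percentile and short of the call. Of 8 other genes of plasminogen activation, 5 had a usable value, 1 was called higher and 1 lower. Serpine2, an inhibitor of plasminogen activators, had low signals of 12.9 and 21.6 (log2 fold change 0.86, with normexp 0.26, which ends the call). Lrp1, an endocytic receptor, had signals of 248 and 127 (log2 fold change −0.85). Plau, the gene of urokinase itself, had signals of 267 and 367 (log2 fold change 0.57), just short of 1.5-fold.

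**Figure D3:**
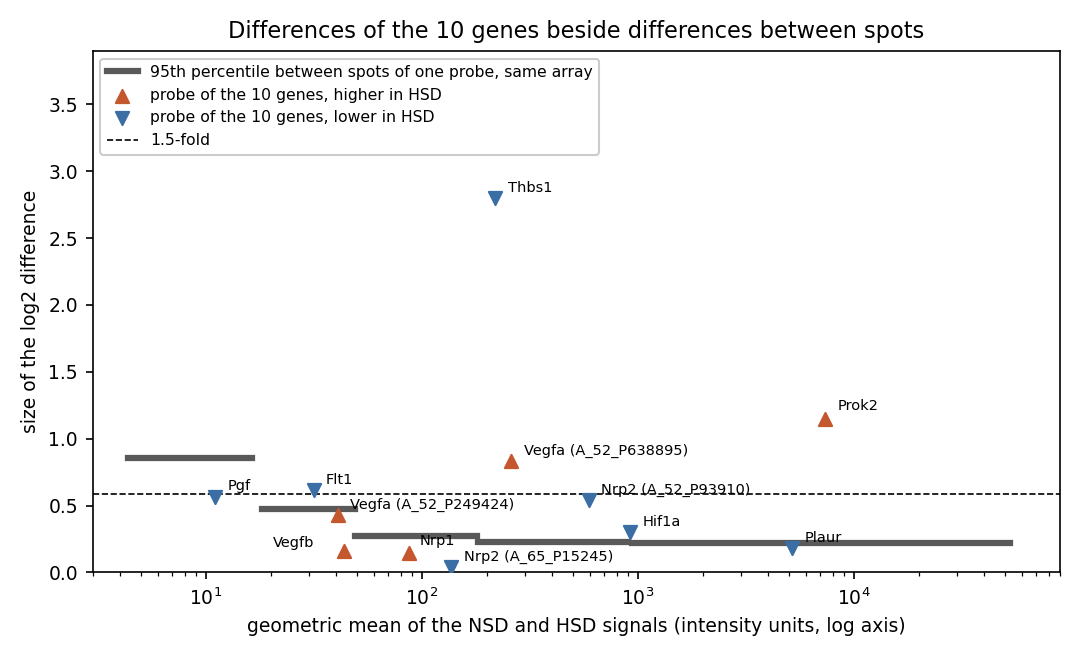
Size of the log2 difference between the diets for the 12 probes against the geometric mean of their signals (log axis), with triangles pointing up for higher and down for lower in HSD; the thick lines are the 95th percentile of differences between spots of 1 probe on the same array in 5 groups of signal, and the dashed line is 1.5-fold. Thbs1, Prok2 and the brighter Vegfa probe stand clear of the thick lines, while Pgf, Vegfb, Nrp1, Plaur, the dimmer Vegfa probe and an Nrp2 probe lie under them.

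Hif1a, encoding the oxygen-regulated subunit of HIF-1, had a signal of 1060 ± 106 under NSD and 795 ± 79.5 under HSD. The HSD value was 1.23-fold lower (log2 fold change −0.30), beyond the differences between spots and short of the call. HIF-1α is controlled mainly through its breakdown, which arrays do not measure. Of 11 other genes of HIF subunits and oxygen sensors, 10 had a usable value, 2 were called higher and none lower, with a median log2 fold change of 0.27. Egln3, a prolyl hydroxylase gene that HIF itself induces, had signals of 286 and 474 (log2 fold change 0.84). Egln1, the main prolyl hydroxylase that marks HIF-1α for breakdown, had signals of 7.75 and 44.7 (log2 fold change 2.64, with normexp 0.68). Arnt, the partner subunit, had a log2 fold change of 0.19 at the brighter probe and 0.92 at the other. Epas1, encoding HIF-2α, had 0.24 at the brightest of its 3 probes and −0.40 at the median over them.

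Of the list of HIF-1 targets, which leaves out Vegfa, all 20 genes had a usable value, and 7 were called higher and 1 lower. Of all genes, 9.86% were called higher and 10.3% lower. Egln3 is among the 7 and was also counted with the oxygen sensors above. The log2 fold changes of the 20 genes were above 0 for 17 and below 0 for 3 (above 0 for 8849 of all 16312 genes). Their median was 0.40 against 0.045 over all genes. Ankrd37, an ankyrin-repeat gene used as a hypoxia marker, had signals of 86.0 and 271 (log2 fold change 1.77). Ero1a, an oxidase of the endoplasmic reticulum, had 262 and 513 (log2 fold change 1.08), and Pgk1, a glycolytic kinase, had 8911 and 14919 (log2 fold change 0.86). Slc2a1, the glucose transporter GLUT1, had a log2 fold change of 0.63. Car9, a carbonic anhydrase and common hypoxia marker, was the lower gene, with signals of 51.1 and 28.0 (log2 fold change −0.75, with normexp −0.23). Bnip3, a gene of mitochondrial clearance, had probes that disagreed. The brightest had signals of 1308 and 810, just short of the call (log2 fold change −0.58), and was past it with normexp (−0.77). The next probe had 976 and 890 (log2 fold change −0.020) and the dimmest 26.5 and 30.2 (0.30), and the median over probes was −0.020. The level of Hif1a itself thus lay on the other side of 0 from most of these genes. The counts were between 6 and 8 higher and between 1 and 2 lower over the other settings at 1.5-fold.

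**Figure D4:**
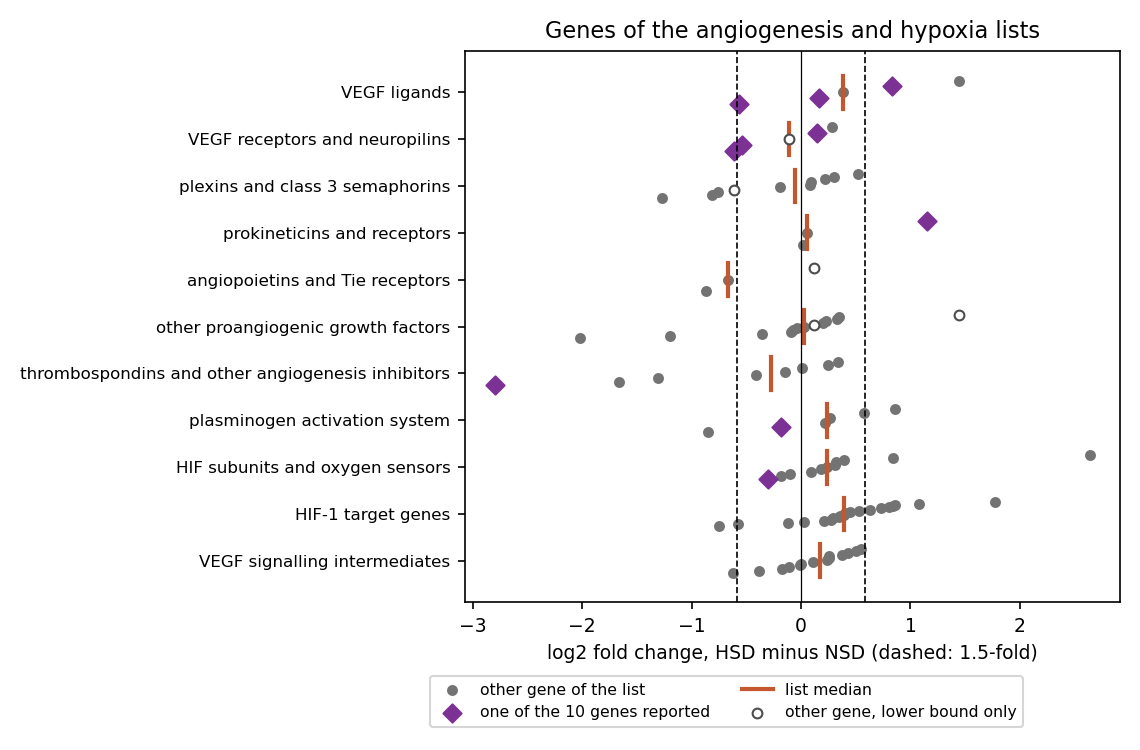
Log2 fold change (HSD minus NSD) of each usable gene in 11 lists of angiogenesis and hypoxia genes, with diamonds for the 10 genes reported here, filled circles for the other genes, open circles where the value is a lower bound, bars for list medians and genes with several probes, Kdr among them, at their brightest; dashed lines mark 1.5-fold. The median of the HIF-1 targets is 0.40 and that of the angiopoietins and Tie receptors, with 3 usable genes, −0.66.

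The lists of angiopoietins and of the semaphorin system are short, and 9.86% of all genes were called higher and 10.3% lower. Of 5 genes of angiopoietins and Tie receptors, 3 had a usable value, none was higher and 2 were lower by at least 1.5-fold. Angpt2, which loosens vessels, had signals of 99.7 and 58.2 (log2 fold change −0.66), and Angpt1, which stabilises them, had 9.37 and 4.74 (log2 fold change −0.87). Neither was past 1.5-fold with the normexp correction, which gave −0.32 and 0.038. Of 12 plexin and class 3 semaphorin genes, the partners and other ligands of neuropilins, 10 had a usable value, none was higher and 4 were lower. Plxnd1, a semaphorin receptor of vessels and macrophages, had signals of 1420 and 746 (log2 fold change −0.81), Plxna1 had 129 and 70.5 (log2 fold change −0.76) and Plxna2 had 21.7 and 8.30 (log2 fold change −1.27, or −0.25 with the normexp correction). Sema3a, which did not clear the background under HSD, was lower by at least 1.52-fold.

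Of 16 other proangiogenic growth factor genes, 13 had a usable value, 1 was called higher and 2 lower. Pdgfb, the factor that recruits pericytes, had signals of 48.4 and 19.5 (log2 fold change −1.20), and Fgf1 had 25.7 and 5.84 (log2 fold change −2.02). With the normexp correction these values were −0.38 and −0.35. Each gene has another, dimmer probe with a difference above 0, and the medians over both probes were −0.53 and −0.83. With medians over probes the list had 2 genes called higher and 1 lower, the added one being Mdk, which encodes midkine (0.20 at the brighter probe, 1.06 at the other). The higher gene was Ptn, a heparin-binding factor that did not clear the background under NSD and was at least 2.72-fold higher under HSD (log2 fold change 0.25 with normexp). Grn, encoding progranulin, had signals of 7005 and 6609 (log2 fold change 0.030). Of 14 intermediates of VEGF receptor signalling, all usable, none was higher and 1 was lower, Plcg1, with signals of 22.5 and 13.5 (log2 fold change −0.62, with normexp −0.067). With normexp the list had 1 gene called higher, the kinase gene Akt1 (0.60, against 0.55 without it), and none lower.

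The isolated cells carried markers of monocytes and of neutrophils alike. All 8 monocyte markers and all 11 neutrophil markers with a probe cleared the background under both diets. The latter had summed signals of 348703 and 339253 before scaling, and Ly6c1 had signals of 51811 and 48478. Among all genes, 9.86% were called higher and 10.3% lower, shares to set beside the counts that follow. Of the monocyte markers, 1 was called higher (Chil3, log2 fold change 0.65) and 2 lower (Fcgr1, −3.68, and Ccr2, −0.78). Of the neutrophil markers, none was at least 1.5-fold higher and 1, Mpo, was lower (log2 fold change −0.92). Neutrophils are a known source of prokineticin 2, and their part in the Prok2 level was not tested. Of 10 epithelial markers, which 4T1 cells could bring, 9 had a usable value. The summed signals of the 10 were 194 and 190 before scaling, and no direction is read from these sums. At least 1.5-fold higher were 4 of the 9, among them Krt18 (15.9 and 25.0), Epcam (14.5 and 21.8) and Krt8 (8.68 and 12.2). Krt5 (46.6 and 29.5) and Cdh1 (45.0 and 30.8) lay the other way, short of the call, and with the normexp correction none of the 9 was past 1.5-fold. Carcinoma cells also make VEGF-A, and their part in the Vegfa difference was not tested. Of 8 usable T and NK cell markers, 1 was lower, Cd3e (log2 fold change −1.09), and of 6 usable B cell markers none was past 1.5-fold.

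**Figure D5:**
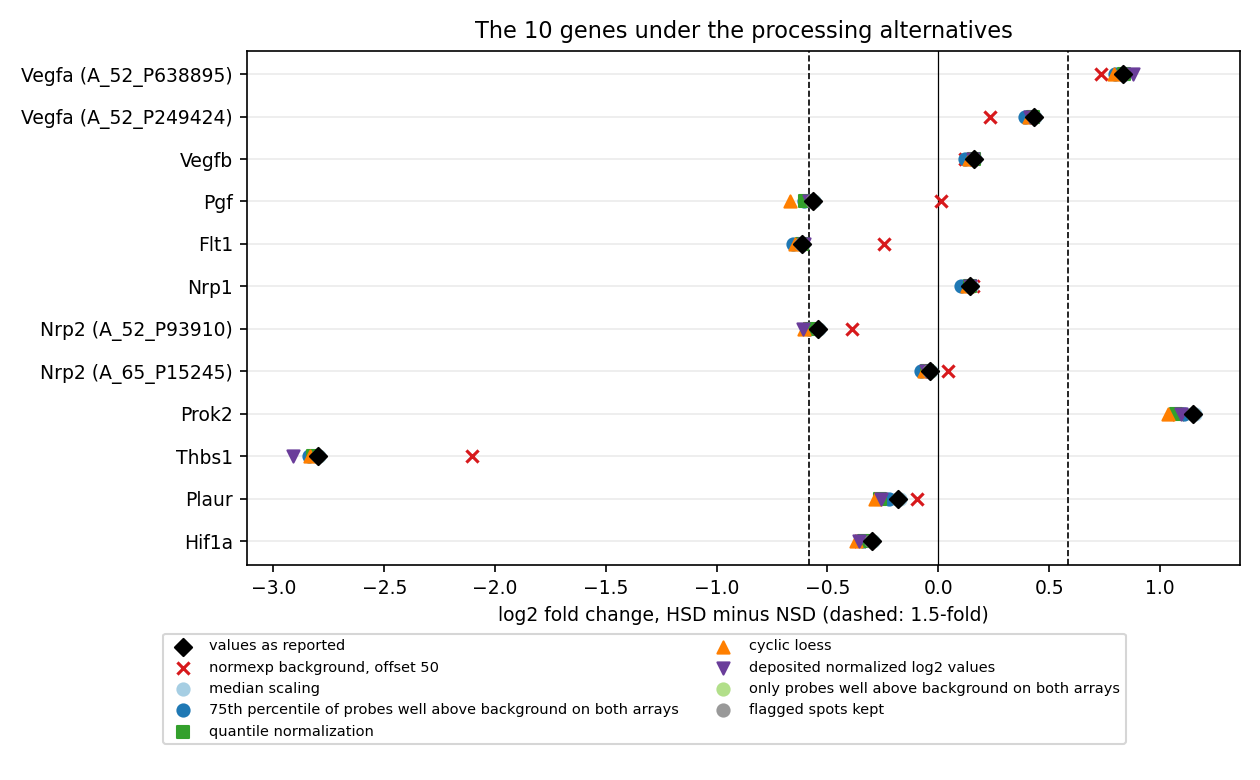
Log2 fold change (HSD minus NSD) of the 12 probes under the processing reported here and 8 alternatives, shown by symbol; dashed lines mark 1.5-fold. Prok2, Thbs1 and the brighter Vegfa probe stay past 1.5-fold in all of them, Flt1 drops to −0.25 with the normexp correction, and Pgf and the brighter Nrp2 probe lie close to the line.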

How the data were processed

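M-MDSC RNA of 1 pool per diet was hybridised to Agilent mouse 4 × 44 k arrays, both on 1 slide. The authors deposited, per the file headers, the intensity of each spot from Feature Extraction 11.0.1.1 after background and spatial correction within the array, with the software's error of it, and median intensities of spot and background, used for normexp. They also deposited log2 values normalized with GeneSpring. The method is not named, but 99.7% of the sorted values of both columns agreed within 0.001, as quantile normalization gives. Columns left unused numbered 0.

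Flagged spots and control spots were left out, the log2 signals of a probe's spots were averaged, and each array's 75th percentile was subtracted. A probe was well above background if at least 50% of its spots were. Where it was not on 1 array, the fold is a lower bound, taken against that array's lowest signal well above background (4.61 for NSD, 4.39 for HSD) or the probe's own signal if higher. A gene was called at 1.5-fold. Transcripts were named through RefSeq (GRCm38.p6), with names for 27223 of 39413 probes. The array was designed on an older build, so no probe positions are given. The probe with the highest mean log2 signal stood for a gene. The probes well above background were 71.9% in NSD and 72.4% in HSD, no spot was saturated, and precision is limited by the number of arrays.

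The 10 genes, 11 pathway lists and 9 cell type lists were chosen with earlier results of these data known. Named were the 10 genes, up to 4 genes per list with the largest difference among those past 1.5-fold on both detected arrays, and receptors, ligands and defining markers chosen with the lists. Further genes (Cd47, Grn, Vegfc, Ly6c1, C1qb, Fcgr3, Gp1bb, Gp6, Clec1b, Krt5, Cdh1, Bnip3, Akt1, Mdk, Slc2a1, Car9, Ptn, Sema3a, Prok1, Tie1) were named after their values were seen. The result of 1 gene of the lists is not reported here. The call rule was tested on simulated data. There were 10 alternatives (normexp with offset 50, other scalings, quantile, cyclic loess, deposited values, detection on both arrays, flagged spots kept, 2-fold, median over probes). Python 3.11.15, numpy 2.4.6, pandas 2.3.3, matplotlib 3.10.9, R 4.3.3 and limma 3.58.1 were used.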

Additional observations from a re-analysis of the deposited data

How the results depend on the processing

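No paired analysis was possible because each diet has 1 array. Prok2, Thbs1 and the brighter Vegfa probe kept their direction and stayed past 1.5-fold under the 8 alternatives computed per probe. Prok2 and Thbs1 did so also at a 2-fold threshold. Of the 8, detection on both arrays could not change these values, and keeping flagged spots moved them only through the scaling. The count of the 10 genes at least 1.5-fold lower was 2, and it was 1 with the normexp correction, without Flt1. It was 3 with quantile normalization and with scaling on probes well above background on both arrays, with Pgf in addition. It was 3 in the deposited values, with Nrp2 in addition, and 4 with cyclic loess, with both Pgf and Nrp2. With the normexp correction the median log2 fold change of the 10 genes was −0.042, and 619 of all genes were higher and 655 lower, against 1608 and 1682. At 2-fold, 1 of the 10 genes was higher and 1 lower, and of all genes 428 were higher and 681 lower. Of all called genes 48.9% were higher, and 38.5% with cyclic loess. No scaling moved the median of all genes by 0.1 or more on the log2 scale, the largest move being −0.069 with cyclic loess. The counts for the lists moved by more than 1.5 times, or to or from 0, in 52 of 400 comparisons with an alternative. Signals near background, below about 50 intensity units here, limit Pgf, Flt1, Vegfb and the dimmer Vegfa probe. At such signals the normexp offset of 50 by itself draws a fold towards 1, so a lost call there decides nothing.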
